A study of Mus musculus with 6 samples.

Results

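The 36 genes described here code for proteins of the DNA damage response and of DNA repair, and were taken by gene symbol: the 4 checkpoint kinases Atm, Atr, Chek1 and Chek2, 6 checkpoint mediators and fork protection genes, the 3 subunits of the MRN complex, 7 genes of homologous recombination, 2 RecQ helicases with exonuclease 1, 8 Fanconi anaemia genes, and 5 genes of base excision, single-strand break, mismatch and translesion repair. All 36 were among the 23183 gene symbols of the expression tables. RNA-seq had been performed on CD4+CD8+ double positive (DP) thymocytes, the immature T cells of the thymic cortex, from C57BL/6 mice aged 6 weeks. Both groups carried the floxed allele of Nsrp1, which codes for the splicing regulator NSrp70. The 3 WT libraries came from Nsrp1 f/f mice without Cre, and the 3 cKO libraries from Nsrp1 f/f CD4Cre mice, in which Cre under Cd4 regulatory elements deletes the gene from the late double negative stage on. The sources used here do not say whether each library was 1 mouse, so p-values measure only the spread between these libraries.

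Broken or stalled DNA is sensed by kinases: ATM answers mainly to double-strand breaks and ATR to exposed single-stranded DNA, and they act in part through CHK2 and CHK1. The MRN complex holds broken ends and starts their resection, after which BRCA1, BRCA2 and their partners guide strand exchange with the sister chromatid, while the Fanconi anaemia proteins release replication forks stalled at crosslinks. Many of these genes are transcribed most in cells that replicate their DNA. DP thymocytes arise from a burst of division and then stop cycling while they rearrange the T cell receptor alpha locus, a process that itself cuts DNA.

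Values are FPKM, fragments scaled to transcript length and to the mapped total of the library, so levels can be compared between genes. Depth, estimated from the steps between low values, was 20.7 to 20.8 M fragments (M for the prefix mega) in the WT libraries and 13.1, 20.5 and 17.4 M in the cKO libraries. The WT libraries differed from each other by 1.46 to 1.58 times the variance of counting alone, and the cKO libraries by 27.9 to 59.1 times. Each comparison was therefore also made with WT averaged and counted as 1 sample, which is assumed to vary like the cKO group. Nsrp1, listed under its older symbol Ccdc55, measured 20.2, 20.7 and 21.1 FPKM in WT and 17.7, 15.8 and 15.0 FPKM in cKO, a log2 fold change of -0.34 ± 0.077 (SE) with adjusted p = 0.00675 in limma, and adjusted p = 0.184 with WT as 1 sample. Its transcript was thus still present in every cKO library, as far as a value over the whole gene can show. For the protein, the study reported a significant reduction of NSrp70 in cKO thymocytes by western blot. Xist was at 69.8 to 72.0 FPKM in WT and 4.07 to 5.44 FPKM in cKO, and 4 Y-linked genes (Uty, Kdm5d, Ddx3y and Eif2s3y) had values of 0 in all WT libraries and of 5.83 FPKM or more in all cKO libraries, so the sex of the mice and the genotype cannot be told apart. Of the other cell types whose markers were checked, B cell markers summed to 22.8 to 24.2 FPKM in WT and 26.6 to 39.4 FPKM in cKO with 4 of 5 under 1 FPKM everywhere, myeloid markers to 2.90 to 3.59 and 2.58 to 4.12 FPKM, stromal markers to 3.48 to 3.94 and 1.91 to 3.66 FPKM with 2 of 6 listed at 0, and erythroid markers to 1.98 to 2.73 and 12.4 to 26.6 FPKM with 4 of 6 under 1 FPKM everywhere. The 8 DP markers summed to 4853 to 4936 FPKM in WT and 6726 to 8846 FPKM in cKO, 4 of 5 double negative markers and 4 of 5 mature single positive markers lay below WT in every cKO library, and the part of such shifts in the results below was not tested.

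In cKO thymocytes 21 of the 36 genes were higher than in WT, 3 were lower and 12 did not pass the test. The threshold was adjusted p under 0.05 in limma over 10326 genes. As shares of the list these were 58.3% higher and 8.33% lower, beside 35.8% higher and 29.8% lower among all genes tested. Of all genes tested 65.5% passed in 1 direction or the other. With libraries scaled to equal FPKM totals, 10 of the 36 were higher and 15 lower, beside 8.74% and 59.9% of all genes. The median log2 fold change of the 36 was 0.38, against 0.039 over all genes. The changes were moderate: Chek1 alone reached a log2 fold change of 1, and Chek1, Exo1, Blm and Fancl alone had a cKO mean of at least 2 times the WT mean in FPKM. All 36 passed the filter of 1 FPKM in 3 libraries, with WT means from 1.80 FPKM for Brca2 to 73.9 FPKM for Msh6 and a median of 7.56 FPKM. Their summed level was 453 to 456 FPKM in WT and 613 to 642 FPKM in cKO. FPKM totals over all genes were higher as well, at 521296 to 531517 in WT and 701396 to 850548 in cKO. In 23 genes all 3 cKO libraries lay above all 3 WT libraries, in 6 below, and in 7 the groups overlapped, beside 39.2% above and 33.3% below, 72.5% together, among all genes tested. In bulk RNA, a change in the share of cells that express a gene and a change in the RNA per cell cannot be told apart.

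**Figure D1:**
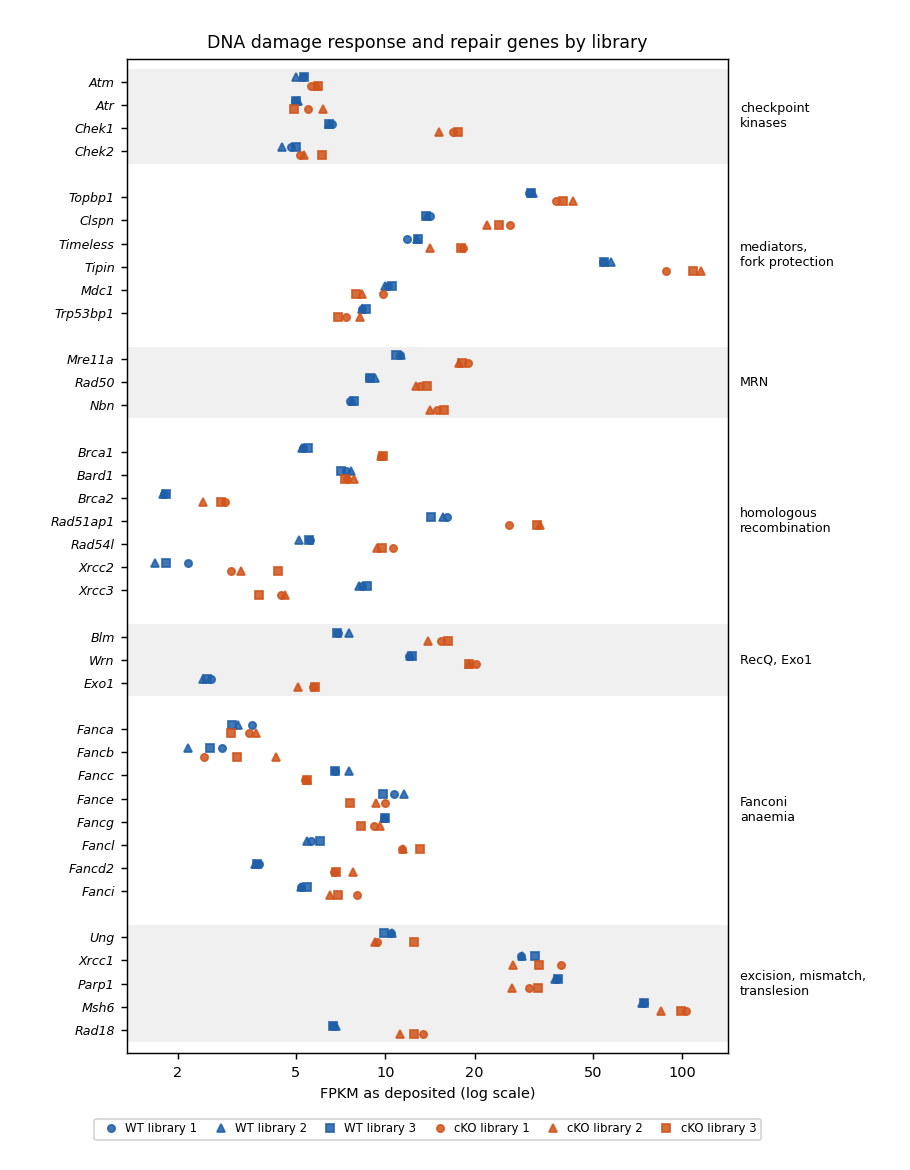
FPKM of the 36 genes in each library, on a log axis, ordered by role, with WT in blue and cKO in orange and one marker shape per library number. WT points of most genes lie close together, with a median range of 5.41% of the mean and a largest of 26.4%. The cKO points of Chek1, Nbn, Blm and Fancl stand to the right of the WT points, and those of Xrcc3 to the left.

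The WT libraries lay close together for single genes as well, with a median range of 5.41% of the mean, and the cKO libraries had a median range of 17.3%. No cKO library was the extreme one throughout: cKO libraries 1, 2 and 3 were the highest of the group for 12, 11 and 13 genes, and the lowest for 11, 17 and 8. With WT counted as 1 sample, 14 of the 36 genes were higher and 1 was lower, beside 7.21% and 8.73% of all genes (15.9% passed). Those were Chek1, Clspn, Tipin, Mre11a, Nbn, Brca1, Rad51ap1, Rad54l, Blm, Wrn, Exo1, Fancl, Fancd2 and Rad18 on the higher side and Xrcc3 on the lower.

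**Figure D2:**
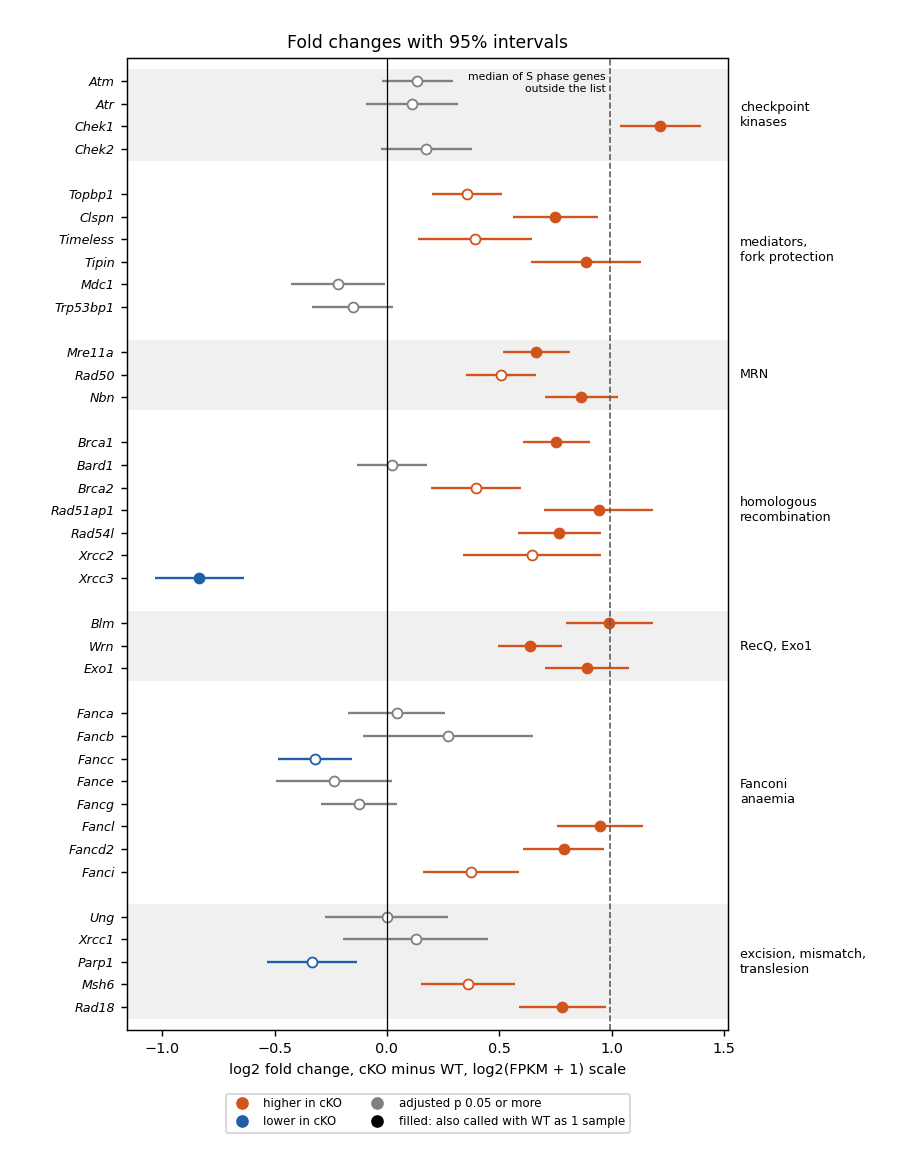
Log2 fold change, cKO minus WT, of log2(FPKM + 1) for each gene with its 95% interval from limma, coloured by the call at adjusted p under 0.05 and filled where the call held with WT as 1 sample. The dashed line marks the median of 36 S phase genes outside the list, 0.99, which Chek1 alone exceeds here (11 genes exceed that median with quantile normalization, 7 after correction for GC content and length, 4 with equal totals), and 12 genes drawn to the right of 0 turn negative when libraries are scaled to the same FPKM total.

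How libraries were scaled to each other mattered for the smaller changes. FPKM totals were 521296 to 531517 in WT and 701396 to 850548 in cKO, and when each library was scaled to the same total, the median log2 fold change of all genes moved from 0.039 to -0.45. Of the 36 genes, 10 were then higher and 15 lower, beside 8.74% and 59.9% of all genes (68.6% passed), and 27 of the 36 lay above the shifted median. The fold change of Chek1 was 0.71 on that scale. Quantile normalization gave 24 higher and 3 lower, beside 33.7% and 29.4% of all genes (63.1% passed). For the count over 5 settings that follows, the share among all genes tested was not worked out. That count can therefore not be set beside a rate for other genes. In every one of 5 settings (the 3 scalings, WT as 1 sample, and correction of each library for transcript length and GC content) 11 genes passed the test in the same direction: Chek1, Nbn, Brca1, Rad51ap1, Rad54l, Blm, Exo1, Fancl, Fancd2 and Rad18 were higher and Xrcc3 was lower.

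**Figure D3:**
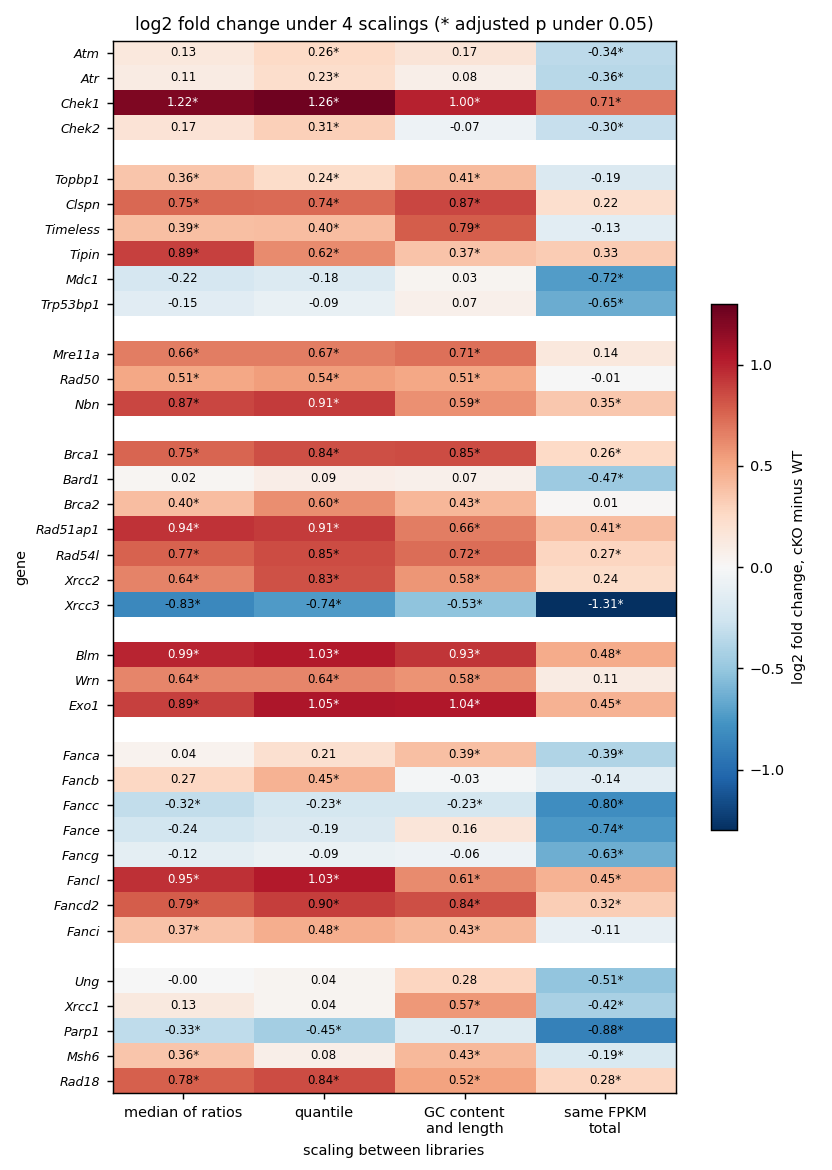
Log2 fold change of the 36 genes, cKO minus WT, as a heat map with one row per gene and one column for each of 4 treatments of the libraries, orange to red for higher and blue for lower in cKO, the value printed in each cell and an asterisk at adjusted p under 0.05. In the column of equal FPKM totals many rows turn blue, as the median of all genes moves to -0.45, while Chek1, Blm and Exo1 stay red and Xrcc3 is blue in every column.

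RefSeq promoter windows (GRCm38.p6), from 250 bases before to 50 after each start, were at hand for 29 of the 36 genes and for 7923 of all genes tested. Some genes had more than 1 window, and a gene was counted when any of its windows held the letters. An E2F octamer (TTTCCCGC, TTTCGCGC, TTTGCCGC or TTTGGCGC, on either strand), the letters bound by the E2F factors that switch on replication genes, was found for 8 of the 29 genes, 27.6%, against 5.17% of the 7923. The octamer was found for 4 of 14 genes that were higher (Topbp1, Clspn, Brca2 and Msh6) and for 0 of 3 that were lower. It was also found for 4 of 12 that did not pass (Chek2, Mdc1, Bard1 and Fancg). The letters CCAAT on either strand, searched separately so that matches may overlap the octamer, were found for 16 of 29 genes, 55.2%, against 43.5% of all. TTTGAA on either strand, the core of an element common in genes of the late cell cycle, was in 1 of 29, 3.45%, against 13.9% of all. Below are the bases upstream of the earliest annotated start, 5′ to 3′ on the strand of the gene, for the 4 genes whose octamer lies there, with the octamer in capitals: Topbp1 at chr9:103305077-103305214 on the plus strand with the octamer starting at -17, Brca2 at chr5:150522371-150522620, plus, at -168, Chek2 at chr5:110839733-110839978, plus, at -148, and Mdc1 at chr17:35841248-35841497, plus, at -16. They are shown because Topbp1 and Brca2 were higher in cKO while Chek2 and Mdc1 did not pass the test. Xrcc3, the gene that fell most, is given at chr12:111813880-111814129 on the minus strand, with its 6 CCAAT matches in capitals.
Topbp1: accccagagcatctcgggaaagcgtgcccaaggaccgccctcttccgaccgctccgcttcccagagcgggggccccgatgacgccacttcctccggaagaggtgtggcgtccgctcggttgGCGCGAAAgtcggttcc
Brca2: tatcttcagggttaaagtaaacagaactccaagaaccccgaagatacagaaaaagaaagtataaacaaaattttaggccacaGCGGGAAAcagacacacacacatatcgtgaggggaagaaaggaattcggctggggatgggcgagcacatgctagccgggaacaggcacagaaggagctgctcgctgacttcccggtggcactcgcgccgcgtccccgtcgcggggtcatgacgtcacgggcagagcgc
Chek2: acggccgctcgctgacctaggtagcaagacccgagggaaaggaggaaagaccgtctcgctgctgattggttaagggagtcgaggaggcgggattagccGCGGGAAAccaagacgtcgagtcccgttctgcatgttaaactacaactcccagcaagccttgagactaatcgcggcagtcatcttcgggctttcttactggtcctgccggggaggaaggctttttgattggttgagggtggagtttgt
Mdc1: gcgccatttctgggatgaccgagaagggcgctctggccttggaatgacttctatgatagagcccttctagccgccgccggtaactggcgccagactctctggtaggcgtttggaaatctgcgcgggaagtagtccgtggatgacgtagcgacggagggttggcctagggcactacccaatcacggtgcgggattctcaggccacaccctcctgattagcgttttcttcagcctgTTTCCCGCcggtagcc
Xrcc3: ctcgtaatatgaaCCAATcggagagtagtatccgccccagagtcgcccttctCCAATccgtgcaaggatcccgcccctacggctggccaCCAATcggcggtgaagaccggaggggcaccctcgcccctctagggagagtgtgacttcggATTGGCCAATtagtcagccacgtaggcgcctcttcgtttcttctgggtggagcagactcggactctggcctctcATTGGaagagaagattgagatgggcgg

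Of the checkpoint kinases, only Chek1 passed the test. Chek1 (GRCm38 chr9:36708482-36727065, minus strand, as for all positions below), the effector kinase of ATR, measured 6.60, 6.48 and 6.48 FPKM in the WT libraries and 16.8, 15.1 and 17.6 FPKM in the cKO libraries. The lowest cKO library stood well above the highest WT library. The log2 fold change was 1.22 ± 0.076 (SE), the largest of the 36 genes here (after correction for GC content and length Exo1 was at 1.04 and Chek1 at 1.00), with adjusted p = 0.000101 in limma and 0.0294 with WT as 1 sample. Its upstream kinase Atr (chr9:95857597-95951781, plus strand) measured 4.97, 5.09 and 5.0 FPKM in WT and 5.49, 6.17 and 4.92 FPKM in cKO. The groups overlapped, because cKO library 3 was the lowest of all 6, and the log2 fold change was 0.11 ± 0.086 (SE) with adjusted p = 0.286. Atm (chr9:53439149-53536740, minus strand), the kinase of the double-strand break response, measured 5.26, 5.01 and 5.33 FPKM in WT and 5.63, 5.89 and 5.92 FPKM in cKO. The cKO group lay just above the WT group, and the log2 fold change of 0.13 ± 0.067 (SE) gave adjusted p = 0.114. Chek2 (chr5:110839979-110874145, plus strand), the effector kinase of ATM, measured 4.83, 4.48 and 5.0 FPKM in WT and 5.15, 5.32 and 6.11 FPKM in cKO. Here too the groups did not overlap, and the log2 fold change of 0.17 ± 0.086 (SE) gave adjusted p = 0.111. Quantile normalization called Atm, Atr and Chek2 higher and scaling to the same total called all 3 lower, so no direction is given for them. The 95% intervals were -0.02 to 0.29 for Atm, -0.09 to 0.31 for Atr and -0.03 to 0.38 for Chek2, none of which reached that of Chek1, 1.04 to 1.40.

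**Figure D4:**
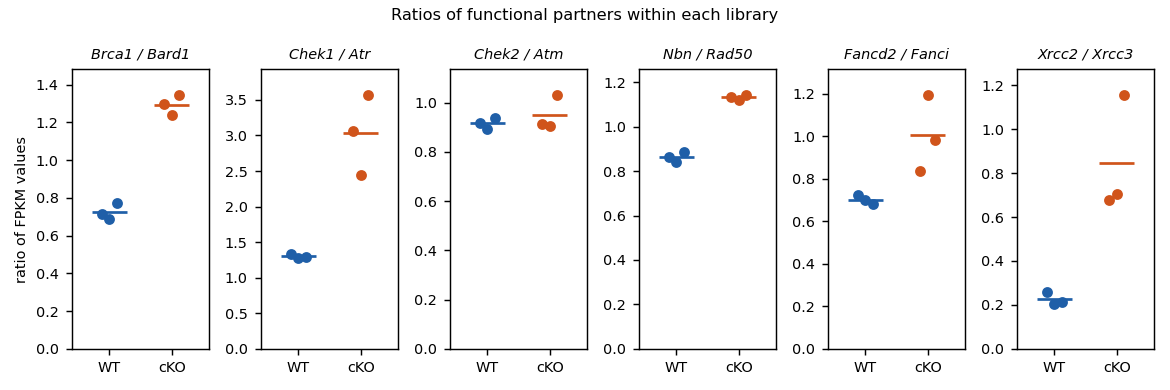
Ratio of the FPKM of 2 partner genes in each library, with WT in blue and cKO in orange and a bar at each group mean, on axes that start at 0. Chek1 to Atr, Brca1 to Bard1, Nbn to Rad50, Fancd2 to Fanci and Xrcc2 to Xrcc3 are higher in every cKO library than in any WT library, while Chek2 to Atm overlaps.

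Ratios between partners within a library are the same whatever factor the library is multiplied by. The ratio of Chek1 to Atr was 1.33, 1.27 and 1.29 in WT and 3.07, 2.45 and 3.57 in cKO, and that of Chek1 to Chek2 had a WT mean of 1.37 and a cKO mean of 3.00 ± 0.24 (SD, n = 3). The ratio of Chek2 to Atm had a WT mean of 0.917 and a cKO mean of 0.950 ± 0.071 (SD, n = 3), with overlapping groups. Of 10 such ratios, picked with the values in view, 9 did not overlap between the groups and were higher in cKO. Among all single genes tested, 72.5% did not overlap, and no rate for other gene pairs is given. Rad50, Xrcc3 and Chek1 also recur among the ratios. Because of that choice, neither the 9 nor the p-values that follow can test whether partners moved apart. An exact two-sided permutation test gave p = 0.1 for each of the 9, the smallest p that 3 against 3 allows, 0.111 after Benjamini-Hochberg adjustment over the 10, and p = 0.7 for Chek2 to Atm. Ratios of unlike genes still carry any bias from GC content or length.

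Among the checkpoint mediators and fork protection genes, 4 of 6 were higher in cKO (Topbp1, Clspn, Timeless and Tipin). Mdc1 and Trp53bp1 did not pass, and the group median was 0.37. The shares over all genes tested were 35.8% higher and 29.8% lower. With libraries scaled to the same total none of the 4 passed and Topbp1 and Timeless turned negative. On that scale 8.74% of all genes were higher and 59.9% lower. Tipin (chr9:64281581-64305424, plus strand), whose protein travels with the replication fork, measured 54.3, 57.4 and 54.6 FPKM in WT and 88.1, 115 and 108 FPKM in cKO. Every cKO library was above WT, library 1 by least, and the log2 fold change was 0.89 ± 0.10 (SE) with adjusted p = 0.000471, 0.0431 with WT as 1 sample. After correction for GC content and length it was 0.37. Clspn (chr4:126556935-126593903, plus strand), which codes for claspin, the adaptor that brings CHK1 to ATR, measured 14.2, 13.8 and 13.7 FPKM in WT and 26.2, 22.0 and 24.2 FPKM in cKO. The groups were well apart, with a log2 fold change of 0.75 ± 0.080 (SE) and adjusted p = 0.000358. Topbp1, the activator of ATR, and Timeless, the partner of TIPIN, had log2 fold changes of 0.36 and 0.39 with adjusted p = 0.00276 and 0.0151, and neither passed with WT as 1 sample. The call of Timeless also ended without WT library 1 (adjusted p = 0.0569) or cKO library 3 (adjusted p = 0.0592), and its value was 0.79 after correction for GC content and length. The other two act mainly downstream of ATM. Mdc1 (chr17:35841515-35859670, plus strand), which binds phosphorylated H2AX, measured 10.2, 9.97 and 10.5 FPKM in WT and 9.82, 8.32 and 7.96 FPKM in cKO. The cKO values were all below WT, but the log2 fold change of -0.22 ± 0.089 (SE) gave adjusted p = 0.064. Trp53bp1, which codes for 53BP1, a factor that limits end resection, had a log2 fold change of -0.15 ± 0.076 (SE) with adjusted p = 0.116, and after correction for GC content and length both values were slightly above 0, at 0.033 and 0.069. Of the exon bases of Trp53bp1, 15.0% are shared with Tubgcp4 on the opposite strand.

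All 3 MRN genes were higher in cKO, beside 35.8% of all genes tested, with a median log2 fold change of 0.66. With equal totals 1 of them was higher and 0 were lower, beside 8.74% and 59.9% of all genes. Nbn (chr4:15957925-15992589, plus strand), the subunit that recruits ATM, measured 7.60, 7.74 and 7.86 FPKM in WT and 14.9, 14.1 and 15.8 FPKM in cKO. The cKO libraries formed a tight group above WT, with a mean ratio of 1.93, a log2 fold change of 0.87 ± 0.068 (SE) and adjusted p = 0.000146. Mre11a (chr9:14784654-14837123, plus strand), the nuclease, measured 11.2, 11.3 and 10.8 FPKM in WT and 19.0, 17.6 and 18.1 FPKM in cKO. These groups did not overlap either, and the log2 fold change was 0.66 ± 0.063 (SE) with adjusted p = 0.000249. Rad50, the ATPase that bridges the ends, measured 8.82, 9.20 and 8.89 FPKM in WT and 13.1, 12.6 and 13.8 FPKM in cKO, with a log2 fold change of 0.51 ± 0.065 (SE) and adjusted p = 0.000669, 0.0703 with WT as 1 sample, and -0.0070 under scaling to the same total. The ratio of Nbn to Rad50 was 0.861, 0.841 and 0.884 in WT and 1.14, 1.12 and 1.14 in cKO, and that of Mre11a to Rad50 had means of 1.24 in WT and 1.39 ± 0.070 (SD, n = 3) in cKO.

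In homologous recombination 5 of 7 genes were higher, Xrcc3 was lower and Bard1 did not pass, with a group median of 0.64. Over all genes tested 35.8% were higher and 29.8% lower. Equal totals gave 3 higher and 2 lower, beside 8.74% and 59.9% of all genes. Rad51ap1 (chr6:126923050-126939587, minus strand), which aids strand pairing, measured 16.1, 15.7 and 14.2 FPKM in WT and 26.0, 33.1 and 32.3 FPKM in cKO. The groups were well apart, with cKO library 1 below the other two, and the log2 fold change was 0.94 ± 0.10 (SE) with adjusted p = 0.000375. Rad54l (chr4:116094264-116123690, minus strand), a DNA-dependent motor protein, measured 5.59, 5.10 and 5.54 FPKM in WT and 10.6, 9.36 and 9.78 FPKM in cKO. It did not overlap between the groups, with a log2 fold change of 0.77 ± 0.078 (SE) and adjusted p = 0.0003, although 15.4% of its exon bases are shared with Lrrc41 on the opposite strand. Xrcc3 (chr12:111803192-111813873, minus strand), a strand exchange factor, measured 8.35, 8.15 and 8.65 FPKM in WT and 4.46, 4.61 and 3.76 FPKM in cKO. The direction was opposite to that of its neighbours in the pathway: every cKO library was far below WT, the cKO mean was 0.51 of the WT mean, and the log2 fold change was -0.83 ± 0.084 (SE) with adjusted p = 0.0003, 0.0378 with WT as 1 sample. It stayed lower at -0.53 after correction for GC content and length and -1.31 with equal totals. The ratio of Xrcc2, which acts in the same pathway, to Xrcc3 was 0.259, 0.205 and 0.211 in WT and 0.677, 0.707 and 1.16 in cKO, and that of Rad51c, the direct partner of XRCC3, to Xrcc3 had a WT mean of 0.282 and a cKO mean of 1.07 ± 0.30 (SD, n = 3). Xrcc2 was a low gene at 1.67 to 2.16 FPKM in WT and 3.02 to 4.35 FPKM in cKO, with adjusted p = 0.0041, 0.0824 with WT as 1 sample.

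Brca1 and Bard1 code for the partner subunits of a ubiquitin ligase, of which Brca1 passed the test and Bard1 did not. Brca1 (chr11:101488764-101551955, minus strand) measured 5.28, 5.26 and 5.51 FPKM in WT and 9.65, 9.67 and 9.82 FPKM in cKO. Its libraries were close together within both groups, with a log2 fold change of 0.75 ± 0.063 (SE) and adjusted p = 0.000166, 0.0357 with WT as 1 sample. Bard1 (chr1:71027498-71103146, minus strand) measured 7.38, 7.66 and 7.10 FPKM in WT and 7.43, 7.81 and 7.29 FPKM in cKO. These ranges overlapped almost completely, and the log2 fold change was 0.021 ± 0.066 (SE) with a 95% interval of -0.13 to 0.18 and adjusted p = 0.794. The ratio of Brca1 to Bard1 was 0.715, 0.686 and 0.776 in WT and 1.30, 1.24 and 1.35 in cKO. Bard1 turned negative with equal totals, at -0.47. Brca2, a mediator of strand exchange, was the lowest of the 36 in WT at 1.79 to 1.83 FPKM and measured 2.43 to 2.88 FPKM in cKO, with a log2 fold change of 0.40 ± 0.085 (SE), adjusted p = 0.00519 and 0.161 with WT as 1 sample.

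The RecQ helicases and exonuclease 1 were all higher, beside 35.8% of all genes tested. Their median was 0.89, the highest of the 7 role groups. With equal totals 2 were higher and 0 lower, beside 8.74% and 59.9% of all genes. Blm (chr7:80454733-80535119, minus strand), the helicase that dissolves crossed DNA strands, measured 6.92, 7.57 and 6.88 FPKM in WT and 15.4, 13.9 and 16.3 FPKM in cKO. The cKO mean was 2.13 times the WT mean with no overlap, and the log2 fold change was 0.99 ± 0.082 (SE) with adjusted p = 0.000165. Exo1 (chr1:175880581-175913489, plus strand), the nuclease of long-range resection and of mismatch repair, measured 2.59, 2.44 and 2.52 FPKM in WT and 5.71, 5.10 and 5.78 FPKM in cKO. It was low in both groups and 2.20 times higher in cKO, with a log2 fold change on the FPKM + 1 scale of 0.89 ± 0.079 (SE), which understates the step of so low a gene, and adjusted p = 0.000199. Wrn, the RecQ helicase with an exonuclease domain, measured 12.1 to 12.3 FPKM in WT and 19.1 to 20.2 FPKM in cKO, with a log2 fold change of 0.64 ± 0.061 (SE) and adjusted p = 0.00025. Wrn did not pass with equal totals, whereas Blm and Exo1 did.

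Of the 8 Fanconi anaemia genes Fancl, Fancd2 and Fanci were higher, Fancc was lower, and Fanca, Fancb, Fance and Fancg did not pass, with a median of 0.16 (2 higher and 4 lower with equal totals). The share of higher genes, 37.5%, was near the 35.8% of all genes tested. Equal totals gave 8.74% higher and 59.9% lower among all genes. Fancl (chr11:26386135-26471876, plus strand), the catalytic ligase subunit, measured 5.63, 5.45 and 6.02 FPKM in WT and 11.4, 11.5 and 13.1 FPKM in cKO. No cKO library was near WT, and the log2 fold change was 0.95 ± 0.080 (SE) with adjusted p = 0.000176, although 13.7% of its exon bases are shared with Vrk2 on the opposite strand and the value was 0.61 after correction for GC content and length. Fancd2 (chr6:113531682-113597017, plus strand), which the ligase modifies, measured 3.76, 3.63 and 3.69 FPKM in WT and 6.74, 7.78 and 6.83 FPKM in cKO. The groups stood apart, with a log2 fold change of 0.79 ± 0.076 (SE) and adjusted p = 0.00026. Its partner Fanci measured 5.20 to 5.43 FPKM in WT and 6.51 to 8.06 FPKM in cKO, a log2 fold change of 0.37 ± 0.090 (SE) with adjusted p = 0.00855, 0.178 with WT as 1 sample, and turned negative with equal totals. The ratio of Fancd2 to Fanci was 0.724, 0.698 and 0.679 in WT and 0.837, 1.19 and 0.984 in cKO. Of the exon bases of Fanci, 16.0% are shared with Polg on the opposite strand.

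Fancc (chr13:63285043-63497278, minus strand) measured 6.79, 7.52 and 6.76 FPKM in WT and 5.35, 5.45 and 5.46 FPKM in cKO. The cKO values were nearly equal and below all WT values, and the log2 fold change was -0.32 ± 0.070 (SE) with adjusted p = 0.00553, 0.184 with WT as 1 sample. Of its exon bases 16.4% are shared with the antisense gene Gm16133. The 4 core complex genes that did not pass had log2 fold changes of 0.043 for Fanca, 0.27 for the X-linked Fancb, -0.24 for Fance and -0.12 for Fancg, with adjusted p from 0.0934 to 0.699. Fancb was the shallowest of the 36, with an estimated 89.5 to 245 fragments in a library, and its cKO values of 2.46, 4.30 and 3.16 FPKM straddled the WT values of 2.83, 2.16 and 2.57 FPKM. Correction for GC content and length brought Fanca above the threshold, at 0.39, and turned Fancb and Fance to the other sign. Of the exon bases of Fanca, 10.5% are shared with Zfp276 on the opposite strand.

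In base excision, single-strand break, mismatch and translesion repair, Rad18 and Msh6 were higher, Parp1 was lower, and Ung and Xrcc1 did not pass, with a median of 0.13 (1 higher and 4 lower with equal totals). The shares of 40% higher and 20% lower stand beside 35.8% and 29.8% of all genes. The counts with equal totals stand beside 8.74% higher and 59.9% lower. Rad18 (chr6:112619850-112696686, minus strand), the ligase that marks PCNA at stalled forks, measured 6.68, 6.84 and 6.68 FPKM in WT and 13.4, 11.2 and 12.4 FPKM in cKO. Every cKO library lay far above WT, with a log2 fold change of 0.78 ± 0.081 (SE), 0.52 after correction for GC content and length, and adjusted p = 0.000325. Msh6 (chr17:87975062-87990892, plus strand), a mismatch recognition subunit and the most abundant of the 36, measured 74.1, 73.4 and 74.3 FPKM in WT and 103, 85 and 98.9 FPKM in cKO. The groups did not overlap and the log2 fold change was 0.36 ± 0.089 (SE) with adjusted p = 0.00936, but the value was 0.076 with quantile normalization and -0.19, called lower, with equal totals. Parp1 (chr1:180568924-180601254, plus strand), the sensor of single-strand breaks, measured 37.9, 37.3 and 38.2 FPKM in WT and 30.4, 26.7 and 32.6 FPKM in cKO. All cKO values were below WT, with a log2 fold change of -0.33 ± 0.085 (SE) and adjusted p = 0.011, 0.212 with WT as 1 sample and 0.101 after correction for GC content and length. Xrcc1, the scaffold that PARP1 recruits, measured 28.5, 28.8 and 31.8 FPKM in WT and 39.1, 26.8 and 32.8 FPKM in cKO, with cKO library 2 below WT and libraries 1 and 3 above it. Ung, which removes uracil from DNA, measured 10.5, 10.5 and 9.92 FPKM in WT and 9.41, 9.25 and 12.5 FPKM in cKO, the last value standing above all others and the other two below them. Their log2 fold changes were 0.13 ± 0.14 (SE) and -0.0014 ± 0.12 (SE), with adjusted p = 0.436 and 0.992.

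The direction of the difference went with the base composition of the transcripts. The 21 genes that were higher had a median GC content of 45.8%, with 20 under 50%, the 3 that were lower had a median of 52.7%, with 0 under 50%, and the 12 that did not pass had 49.5%, with 6 under 50%. Over the 36 genes, Spearman's rho between log2 fold change and GC content was -0.60, and over 10245 genes -0.33. With transcript length, rho was -0.0069 over the 36 and -0.30 over all. These are correlations across genes, which share the same 6 libraries and are not independent replicates. After each library was corrected for GC content and length by a spline, rho with GC content over the 36 was -0.26, and 23 genes were higher and 2 lower, beside 29.9% and 26.8% of all genes (56.7% passed). Fanca and Xrcc1 were added to the higher genes and Parp1 was lost from the lower.

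**Figure D5:**
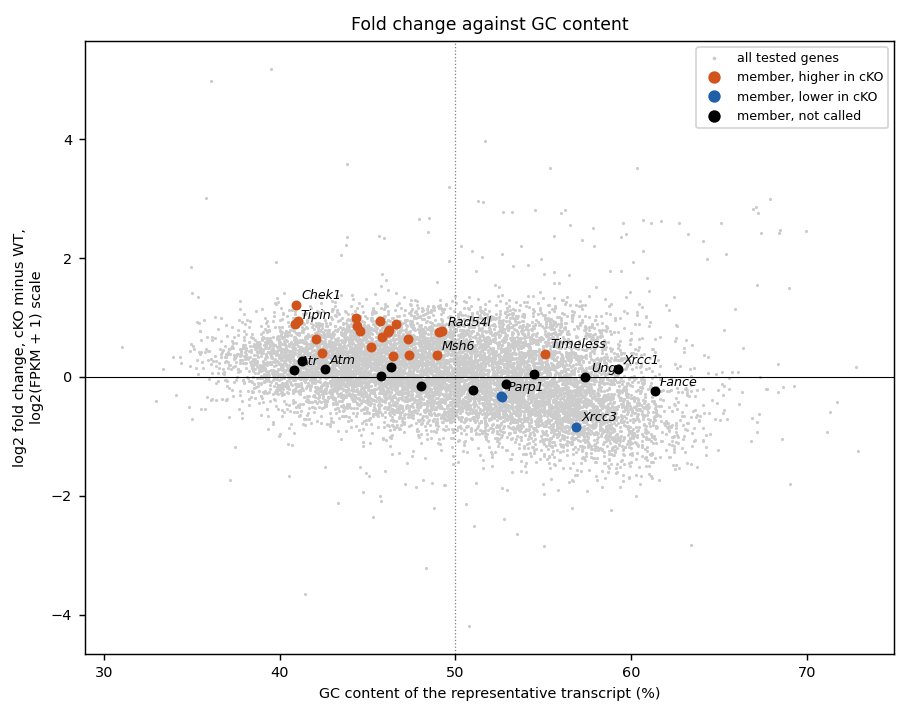
Log2 fold change, cKO minus WT, against the GC content of the transcript in percent, for the 36 genes (coloured) over all genes tested (grey). The genes that were higher gather at low GC content with a median of 45.8%, and the 3 that were lower lie at 52.6% to 56.9%.

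Genes of dividing cells moved in the same libraries. All 10 proliferation markers were higher in cKO, with a median log2 fold change of 1.09 (9 higher and 1 lower with equal totals), and summed to 1022 to 1030 FPKM in WT and 2051 to 2323 FPKM in cKO. The proliferation marker Mki67 measured 97.1, 99.9 and 101 FPKM in WT and 257, 178 and 225 FPKM in cKO, and the replication clamp gene Pcna 407, 408 and 412 FPKM in WT and 856, 858 and 977 FPKM in cKO. Of the 36 repair genes, 6 are also in a common list of S phase genes. Of these, Rad51ap1, Exo1, Tipin, Blm and Clspn were higher and Ung did not pass, with a median of 0.89. The other 30 had 16 higher, 3 lower and a median of 0.36, and with equal totals 7 higher, 14 lower and a median of -0.16. Among all genes tested 35.8% were higher and 29.8% lower, and with equal totals 8.74% and 59.9%. The 36 tested S phase genes outside the list had 34 higher, 1 lower and a median of 0.99 (24 higher and 3 lower with equal totals), and 1 of the 36 repair genes, Chek1, lay above that median. That tally depended on the setting: 11 of the 36 lay above the corresponding median (0.76) with quantile normalization, 7 (0.76) after correction for GC content and length, and 4 (0.45) with equal totals. The part of cycling cells in these differences was not tested.

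The wider set of 97 other repair genes, all of which passed the filter, is given for comparison. In it 59 were higher and 13 lower, 60.8% and 13.4% beside 35.8% and 29.8% of all genes, with a median of 0.32. With WT as 1 sample 13 and 1 passed, beside 7.21% and 8.73% of all genes, and with equal totals 13 and 37, beside 8.74% and 59.9%. Further genes of homologous recombination had 10 of 12 higher and 0 lower, end joining 6 of 7 higher and 1 lower, mismatch repair 4 of 6 and 0, base excision 8 of 14 and 2, Fanconi partners and crosslink nucleases 6 of 10 and 1, double-strand break signalling 5 of 10 and 2, the 9-1-1 clamp with kinase targets 5 of 10 and 1, other helicases 5 of 8 and 2, translesion synthesis 4 of 7 and 1, and nucleotide excision 6 of 13 and 3. The shares of higher genes ran from 46.2% in nucleotide excision to 85.7% in end joining, on groups of 6 to 14 genes. Among the largest rises were those of Cdc25c, the phosphatase that CHK1 restrains, at 1.28 ± 0.11 (SE) with adjusted p = 0.000205, and of the end joining factor Xrcc4 at 1.05 ± 0.063 (SE) with adjusted p = 9.14e-05, its fold change being 0.45 after correction for GC content and length. The largest falls were those of the nuclease scaffold Slx4 at -0.80 ± 0.076 (SE) with adjusted p = 0.000239, the TFIIH helicase Ercc2 at -0.67 ± 0.11 (SE) with adjusted p = 0.00148, and the uracil glycosylase Smug1 at -0.65 ± 0.11 (SE) with adjusted p = 0.00229. With WT as 1 sample Slx4 alone of these 3 passed, and after correction for GC content and length Ercc2 was at -0.10 and Slx4 at -0.46.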

How the data were processed

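RNA from sorted DP thymocytes of 3 WT and 3 cKO samples had been made into libraries with a directional NEBNext kit and sequenced on an Illumina instrument. Per the labels and the study's methods, the authors trimmed reads, aligned them to mm10 with TopHat and deposited FPKM values per gene from Cufflinks. Versions, annotation and strand setting are not given in the sources used here, so genes that overlap on opposite strands may have exchanged reads. Because FPKM values are no counts, the count test of the study could not be used. Libraries were divided by median-of-ratios size factors (1.00 to 1.01), genes with at least 1 FPKM in 3 libraries were kept (10326), and log2(FPKM + 1) was tested with limma 3.58.1 (eBayes with trend, R 4.3.3) over all 6 libraries, with Benjamini-Hochberg adjustment over all genes and a threshold of 0.05. Fold changes are on that log2 scale and are too small for low genes. Intervals are 95%.

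Depth was estimated from the step that 1 fragment makes in FPKM, with fragments of 200 bases assumed, and was 13.1 to 20.8 M fragments. Coordinates, transcript length and GC content came from GENCODE M21 (GRCm38, the same assembly as mm10). Of 23183 symbols, 22110 matched directly and 663 through a synonym. Exon overlaps are a share of all annotated exon bases of a gene. Alternatives were other scalings, filters and pseudocounts, a spline correction for GC content and length, no variance trend, a replicate block, WT as 1 sample, and each library left out. The fit was tested on simulated data. The members and gene lists were chosen with earlier results of these data known. Values are given for every library for the checkpoint kinases and, in each role group, for the up to 2 genes with the largest change in each direction that passed (otherwise 1), other genes being added to show partners. Elsewhere up to 3 genes per direction with the largest change are named, with Cdkn1a, and 1 gene that the rule names is not reported here. Partner ratios were compared by exact two-sided permutation tests.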

Additional observations from a re-analysis of the deposited data

How the results depend on the processing

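Precision was limited by 3 libraries per group and by WT libraries that varied little more than counting, and the depth of a single gene by 89.5 to 7072 estimated fragments. Counting WT as 1 sample left 1645 genes passing, and gave 1 member lower, 13 other repair genes higher and 1 lower, and 1 p53 target higher and 1 lower. Equal totals gave 10 members higher and 15 lower, 13 other repair genes higher and 37 lower, and 2 p53 targets higher and 8 lower. Beside these stand 8.74% higher and 59.9% lower among all genes tested on that scale. Without a filter 8 other repair genes were lower. Correction for GC content and length left 7 other repair genes lower. The replicate block (numbers shared by the labels only, with same-number correlations of -0.022, 0.039 and 0.031, so the samples were not treated as pairs) gave 6467 genes passing, 21 members higher and 3 lower, and the block with the GC content and length correction gave 1 member lower, 7 other repair genes lower and 5 p53 targets lower. The cause of these differences was not tested.

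Leaving out each library in turn gave 5404 to 7637 genes passing, 20 to 22 members higher, 3 to 5 lower (5 without cKO library 1), 44 to 62 other repair genes higher, 4 to 15 lower (4 without WT library 1, 5 without WT library 2 and 4 without WT library 3, and 7 without cKO library 3), 6 to 7 p53 targets higher and 3 to 7 lower (7 without cKO library 2). Log2 fold changes that turned with equal totals were Atm -0.34, Atr -0.36, Chek2 -0.30, Topbp1 -0.19, Timeless -0.13, Rad50 -0.0070, Bard1 -0.47, Fanca -0.39, Fancb -0.14, Fanci -0.11, Xrcc1 -0.42 and Msh6 -0.19. With the GC content and length correction, with or without the block, they were Chek2 -0.071, Mdc1 0.033, Trp53bp1 0.069, Fancb -0.028, Fance 0.16 and Ung 0.28, and with quantile normalization Ung 0.036. With a library left out, Bard1 ranged from -0.00053 to 0.043 and Ung from -0.13 to 0.078. Of 646 values of single genes under alternatives, 575 kept direction and side of the threshold, 30 reversed, 23 lost it and 18 gained it.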

Other observations

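Targets of p53, the transcription factor that ATM and CHK2 activate after DNA damage, were split. Of 18 genes 17 were tested, since Eda2r was listed at 0 in every library. In cKO 6 were higher and 3 lower, which is 35.3% and 17.6% beside 35.8% and 29.8% of all genes, with a median log2 fold change of 0.18, -0.094 after quantile normalization and -0.30 with equal totals. Cdkn1a, the cyclin kinase inhibitor p21, measured 1.43, 1.25 and 1.35 FPKM in WT and 2.49, 2.84 and 2.33 FPKM in cKO. It was low in all libraries and higher in all of the cKO group, at 0.60 ± 0.089 (SE) with adjusted p = 0.00118 in limma. With equal totals Cdkn1a was at 0.24 and did not pass, with adjusted p = 0.111 in limma. Nor did Cdkn1a pass with WT as 1 sample. For the protein, the study reported reduced p21 in a western blot of cKO thymocytes. The largest rises were those of Ccng1 at 0.98, Phlda3 at 0.87 and the BH3-only gene Pmaip1 at 0.75, with adjusted p = 0.000146, 0.00302 and 0.00302. The largest falls were those of Zmat3 at -0.69, Sesn2 at -0.61 and Bbc3, which codes for the death inducer PUMA, at -0.60, with adjusted p = 0.000541, 0.00237 and 0.00364. With WT as 1 sample, 1 target was higher and 1 lower. After correction for GC content and length Sesn2 was at -0.069, Bbc3 at -0.26 and Pmaip1 at 0.44.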
